A study of Arabidopsis thaliana with 48 samples.

Results

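A set of 65 of the 22746 probe sets on the ATH1 array (controls left out) was lower than darkness after 4 h in each of 4 continuous lights and lay nearer to darkness 4 h after a pulse of red or UV-A light. Members were chosen on D, the log2 ratio of the mean signal in a light to the dark mean of the same harvest, with 16 added to each mean. A member has a mean of 50 or more in some group, D of -0.8 or lower at 4 h in far-red, red, blue and white light, and D above -0.4 at 4 h after the red and the UV-A pulse. Its D at 45 min lies above -0.7 in at least 3 of the 7 lights. Of 11838 probe sets that reach the mean, 192 met the bound in the 4 continuous lights, 82 of these also met the bound for both pulses, and 70 met the condition at 45 min as well. Genes of the XTH and expansin families and 5 auxin-linked genes (GH3.3, WES1, HAT2, IAA20 and IAA29) were excluded by name, which removed XTH18, XTH19, EXLA2, GH3.3 and HAT2. Of the 65 members, 24 stand for 1 named gene, 1 stands for several genes and is not named, and 40 are not listed in the annotation used here and are given by probe set. Because these contrasts chose the members, their values against darkness at 4 h in the 4 continuous lights and after the red and UV-A pulses, and at 45 min, are a description and were not tested. The set is not restricted to continuous light without exception: 22 of its members were also called lower 4 h after a UV-A/B pulse (adjusted p under 0.05), as were 11.4% of all probe sets tested. At 45 min after the UV-A pulse, 11 members had D below -0.7, so these were near darkness at 4 h but not at 45 min.

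Seedlings that germinate in darkness put their growth into a long hypocotyl and keep their cotyledons folded. Light is read by phytochromes (red and far-red), cryptochromes (blue and UV-A) and the UV-B receptor UVR8, and it slows hypocotyl growth and opens and greens the cotyledons. Phytochrome-interacting factors (PIFs), a family of transcription factors that accumulate in darkness and promote elongation, are degraded once phytochrome is active. A short red pulse forms the active state of phytochrome at once, and this state is lost again in the darkness that follows, whereas continuous far-red light acts through phytochrome A for as long as it is given. Elongation itself needs enzymes that loosen the cell wall, such as endoglucanases and enzymes that act on pectin. The named members include an endoglucanase gene, a gene of the pectin methylesterase family and a gene of a pectin methylesterase inhibitor.

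All groups are dark-grown Arabidopsis thaliana seedlings of accession Col-0, described as mainly hypocotyl and cotyledons, which were raised for 94 h in darkness at 22 °C. Continuous light was given at 10 µmol per m2 and s as far-red at 715 nm, as red at 650 nm, as blue at 453 nm or as white light. The red pulse lasted 1 min at 650 nm and 50 µmol per m2 and s. The UV-A pulse lasted 5 min at 7 W per m2 behind a filter with its edge at 327 nm, and the UV-A/B pulse differed from it in an edge at 307 nm, which lets UV-B pass. After a pulse the seedlings were returned to darkness, and the dark controls received no light after germination was induced. Each of the 8 conditions was harvested at 45 min and at 4 h with 3 arrays, which makes 16 groups and 48 arrays. The labels do not say whether replicates came from separate cultures, so the p-values refer to a spread between arrays that may be technical only, and the number of arrays limits the precision. Some labels disagree: replicate 2 of UV-A/B at 45 min is described as dark, the title of far-red replicate 2 at 45 min has a prefix of replicate 1, germination of dark replicate 1 at 4 h is put down to green and not red light, and the UV-A/B treatment is written out for 1 array of 6.

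Replicate arrays correlated across probe sets at r of 0.9534 to 0.9772 (median 0.9694), and arrays of different groups at 0.926 to 0.9792, where probe sets are not independent of each other. Of the markers of cotyledon and shoot, 8 probe sets were found by name (RCA, SPCH, LHCB4.1, PORB, MUTE, FMA, LHCB4.2 and LHCB4.3), none at 0, and their summed signal was 4650 to 4900 in far-red arrays and 2660 to 5960 after the UV-A/B pulse, against 2210 to 2750 in darkness at 4 h. This sum mixes changes in both directions. In far-red light 4 of the 6 tested markers were called higher than darkness and 1 lower (13.6% and 15.4% of all probe sets tested). RCA averaged 2100 in far-red light against 491 in darkness, but PORB 345 against 1010 and FMA 20.8 against 18.2. The 3 root hair markers found (XTH26, EXPA7 and EXPA18) summed to 32.7 to 44.5 in far-red arrays, against 34.4 to 41.2 in darkness, none at 0, and no marker of other root tissue was named. The 2 markers of seed reserves (SDP1 and ICL, which act in the use of seed oil) summed to 728 to 956 in far-red arrays, against 1330 to 1640 in darkness. The part of the cotyledon and seed reserve markers in the members' values was not tested, and in whole seedlings fewer cells of a type and less RNA per cell cannot be told apart.

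At 4 h the median D of the 65 members was -1.59 in far-red, -1.11 in red, -1.41 in blue and -1.20 in white light. It was -0.18 after the red pulse, -0.19 after the UV-A pulse and -0.39 after the UV-A/B pulse, which the selection did not use. D lay below 0 in 58 members after each of the red and UV-A pulses, so most members were slightly below the dark mean there too. In signal, the median member mean was 66.9 in far-red, 115 in red, 83 in blue and 98 in white light, against 244 in darkness. For 64 members all 12 continuous-light arrays lay below the 3 dark arrays, a separation that 10.8% of the 15777 probe sets tested also showed, and the selection favours it. The same 64 had all 12 continuous-light arrays below the 6 arrays of the red and UV-A pulses (2.99% of probe sets tested), and the exception in both cases was AT4G18280. Far-red light gave the lowest D in 44 members, blue in 12, white in 8 and red in 1. Red light gave the weakest lowering in 48 members. Averaged over the 4 continuous lights, D ran from -2.49 to -0.91, with 5 members at -2 or lower and 19 at -1.5 or lower. The dark groups of the 2 harvests lay close together, since log2 of the 4 h to the 45 min mean, again with 16 added, ran from -0.49 to 0.50 with a median of -0.02.

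**Figure D1:**
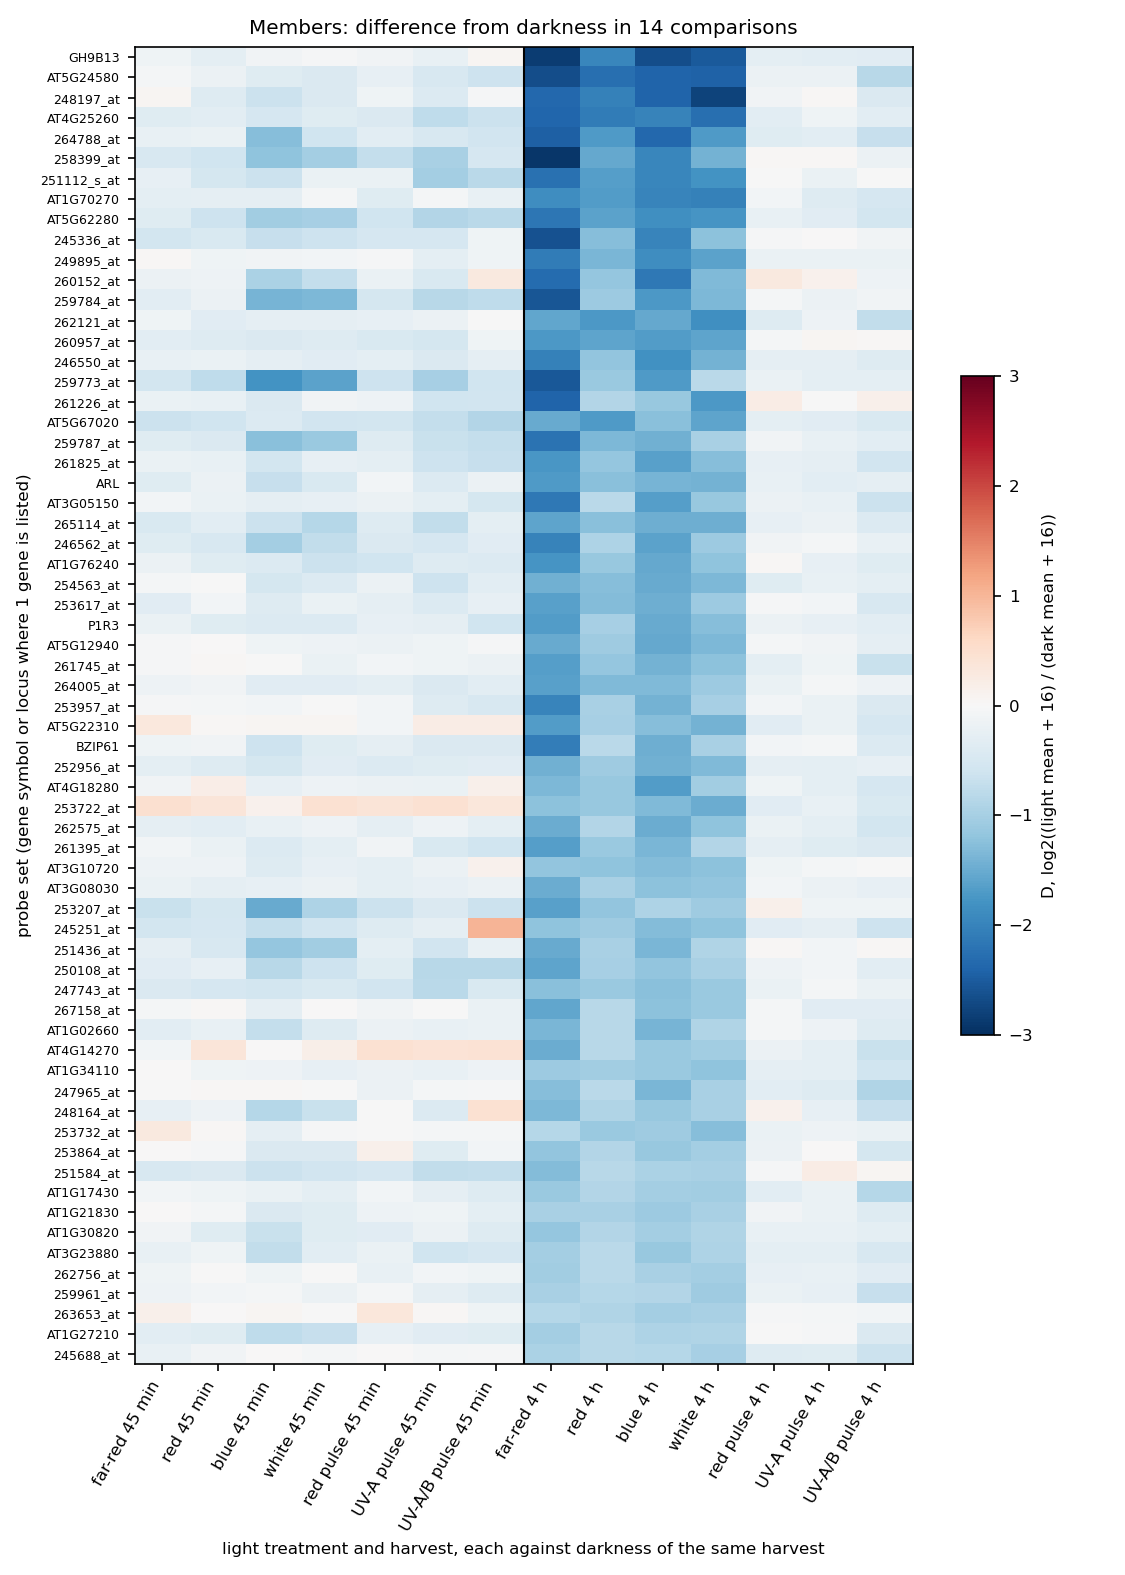
D of the 65 members (rows, ordered by their mean over the continuous lights) in 7 lights at 45 min and 4 h (columns), as a colour scale of the log2 ratio to the dark mean with 16 added. The 4 columns of continuous light at 4 h are blue throughout, as the selection requires, with the far-red median at -1.59 and the red median at -1.11. The red and UV-A pulse columns at 4 h are near white, while the UV-A/B pulse column has a median of -0.39 and reaches -0.90.

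Among the cell wall genes, GH9B13 had the lowest mean D of all 65 members. GH9B13 (AT4G02290, probe set 255517_at), a glycosyl hydrolase of the endoglucanase type, had signals of 62.9, 57.4 and 43.7 in far-red, 128, 108 and 109 in red, 73.2, 52.7 and 64.5 in blue and 85.3, 67.9 and 63.4 in white light at 4 h. It gave 353, 442 and 389 after the red pulse, 382, 403 and 385 after the UV-A pulse and 372, 385 and 384 after the UV-A/B pulse, against 536, 488 and 445 in darkness. Every continuous-light array lay far below every pulse array, the pulse arrays lay just below the dark arrays, and the mean over the continuous lights was 15.6% of the dark mean. At 45 min its groups overlapped, with 434, 437 and 401 in blue light against 458, 405 and 505 in darkness. AT4G25260, a pectin methylesterase inhibitor gene, gave 176, 189 and 119.7 in far-red and 204, 228 and 169 in red light, 751, 733 and 716 after the red pulse, and 893, 939 and 904 in darkness at 4 h. It was the second brightest named member in darkness, and its far-red and red arrays overlapped.

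AT3G10720, of the pectin methylesterase family, had nearly the same level in each continuous light: 126 ± 15.6 in far-red, 124 ± 21.2 in red, 114 ± 16.4 in blue and 121 ± 9.86 in white light (SD, n = 3 each), against 305 ± 47.8 in darkness. After the UV-A/B pulse it gave 302 ± 37.2, and it was the named member whose UV-A/B and dark values lay closest (log2 difference -0.01 ± 0.17, SE, limma adjusted p = 0.978). AT3G08030, which belongs to a family of cell wall proteins and was the brightest named member in darkness, averaged 500.2 ± 25.1 in far-red and 719 ± 84.6 in red light, 1350.0 ± 41.6 after the red pulse and 1431 ± 58.3 in darkness. These wall genes lay among the members with the deepest lowering (GH9B13 at 15.6% of the dark mean and AT4G25260 at 20.7%) and among those with a moderate one (AT3G10720 at 39.7% and AT3G08030 at 42.6%).

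The next group held a sugar transporter gene, a receptor-like kinase gene and genes of other proteins. AT5G24580, which encodes a protein with a heavy-metal-associated domain, had 25.8, 16.8 and 14.9 in far-red, 30, 34.7 and 26.1 in red, 24.1, 20.4 and 33.7 in blue and 20.9, 25.1 and 30.2 in white light at 4 h. After the pulses it had 176, 190.4 and 174 (red), 189, 194 and 159 (UV-A) and 74.7, 135 and 116 (UV-A/B), against 195, 188 and 234 in darkness. The continuous-light values reached the level at which signals are dim, since the 40th percentile of an array lay between 24.3 and 30.1, so the size of this lowering to 12.3% of the dark mean is uncertain. Unlike the red and UV-A pulse arrays, which overlapped the dark arrays, all 3 UV-A/B arrays were lower than darkness. AT3G05150, of the ERD6-like sugar transporter family, had 44.2, 40.4 and 55.9 in far-red, 122, 168 and 137 in red, 65.5, 77.2 and 74.6 in blue and 99.2, 124 and 111 in white light at 4 h. Its values were 206, 260.0 and 224 after the red pulse, 196, 245 and 222 after UV-A and 149, 172 and 163 after UV-A/B, against 212, 269 and 307 in darkness. The 4 lights separated into an order of far-red, blue, white and red from low to high, and far-red and blue arrays did not overlap, nor did blue and white arrays, while white and red arrays did. AT1G34110, a leucine-rich repeat receptor-like kinase gene, did not show this order: it averaged 92.8 ± 4.55 in far-red, 96.1 ± 9.56 in red, 91.0 ± 10.9 in blue and 85.2 ± 5.31 in white light, against 216 ± 9.76 in darkness (SD, n = 3 each). AT5G12940, a leucine-rich repeat protein gene, averaged 181 ± 5.07 in far-red and 252 ± 37.3 in red light, against 542 ± 58.7 in darkness.

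Among regulators, BZIP61 (AT3G58120), a transcription factor of the basic leucine zipper family, had 40.2, 42.8 and 47.5 in far-red, 141, 119 and 119.9 in red, 73.5, 80.7 and 69 in blue and 111, 124 and 101 in white light at 4 h. It had 203, 232 and 226 after the red pulse, 207, 253 and 210.2 after the UV-A pulse and 175, 163 and 178 after the UV-A/B pulse, against 207, 243 and 252 in darkness. Far-red arrays were lowest, blue arrays next, and red and white arrays overlapped, as in AT3G05150, and the UV-A/B arrays lay between the continuous lights and darkness without overlap. ARL (ARGOS-LIKE, AT2G44080), which acts in cell expansion downstream of brassinosteroid, averaged 127 ± 21.3 in far-red, 178 ± 18.8 in red, 161 ± 39.2 in blue and 156 ± 27.3 in white light, against 446 ± 22.5 in darkness (SD, n = 3 each). Its blue, white and far-red arrays overlapped, and after 45 min of blue light it already had 307, 228 and 307, against 419, 483 and 494 in darkness. AT3G23880, an F-box gene, averaged 71.2 ± 5.85 in far-red and 85.8 ± 7.68 in red light, against 162 ± 26.6 in darkness.

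Enzymes of lipid and nucleotide metabolism showed moderate values. AT1G02660, a lipase gene of the alpha/beta hydrolase family, averaged 93.5 ± 0.666 in far-red, 144 ± 14.6 in red, 93.4 ± 11.2 in blue and 136 ± 11.7 in white light, against 269 ± 10.9 in darkness at 4 h (SD, n = 3 each). AT1G30820, a CTP synthase gene, averaged 63.0 ± 10.4 in far-red and 80.5 ± 13.7 in red light, against 160.3 ± 23 in darkness. Its far-red and red arrays overlapped. AT1G17430, another alpha/beta hydrolase gene, had 54.9, 47.9 and 40.5 in far-red, 59.8, 69.1 and 47.9 in red, 51.1, 52.6 and 52.1 in blue and 51.8, 39.2 and 59.9 in white light. It had 90.6, 98.7 and 90.1 after the red pulse, 96.7, 127 and 84.3 after UV-A and 59, 53 and 65.8 after UV-A/B, against 114, 113 and 136 in darkness. For this gene the UV-A/B arrays lay within the range of the continuous-light arrays and below all dark arrays. AT1G27210, an ARM repeat protein gene, gave 85, 91.6 and 69.1 after UV-A/B, 108, 136 and 99 after UV-A and 122, 113 and 116 in darkness, where far-red light gave 52.8, 48.9 and 46.8.

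The other named members are given by locus. AT1G70270 and AT5G62280 were lowered to 14.4% and 21.8% of the dark mean over the continuous lights. AT1G70270 had 13.2 ± 1.36 in far-red light, against 91.2 ± 22.2 in darkness, so its continuous-light values lie among dim signals. AT5G62280 was already at 79.9, 84 and 78.3 after 45 min of blue light, against 211, 184 and 159 in darkness, and these arrays did not overlap. AT5G67020 was the 1 member with its lowest D in red light, with 56.5 ± 4.08 in red and 66.9 ± 12.9 in far-red light, against 221 ± 39.5 in darkness, and its red and far-red arrays overlapped. AT1G76240 averaged 224 ± 32.6 in far-red and 355 ± 25.1 in red light, against 797 ± 53.3 in darkness. P1R3 (AT3G29370) averaged 24.8 ± 3.15 in far-red and 49.2 ± 6.91 in red light, against 115 ± 8.13 in darkness. AT4G14270 had 136, 157 and 122 in far-red light, 236, 286 and 252 after the UV-A/B pulse and 411, 404 and 445 in darkness at 4 h. At 45 min this gene had 508, 556 and 479.6 after the red pulse and 481, 516 and 444 in red light, against 373, 352 and 394 in darkness, so that these arrays lay above the dark ones. AT5G22310 had a wide far-red group of 41.5, 28.6 and 7.70, against 96.5, 120.0 and 137 in darkness. AT4G18280 had wide groups, with 136, 188 and 66.2 in white light against 277, 409.7 and 166 in darkness, and is the member whose continuous-light and dark arrays overlapped. AT1G21830 averaged 90.6 ± 2.86 in far-red light, against 194 ± 30.7 in darkness, but a further probe set of the same gene (262489_at) is no member, with D of -0.38 in far-red, -0.36 in red, -0.53 in blue and -0.32 in white light.

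**Figure D2:**
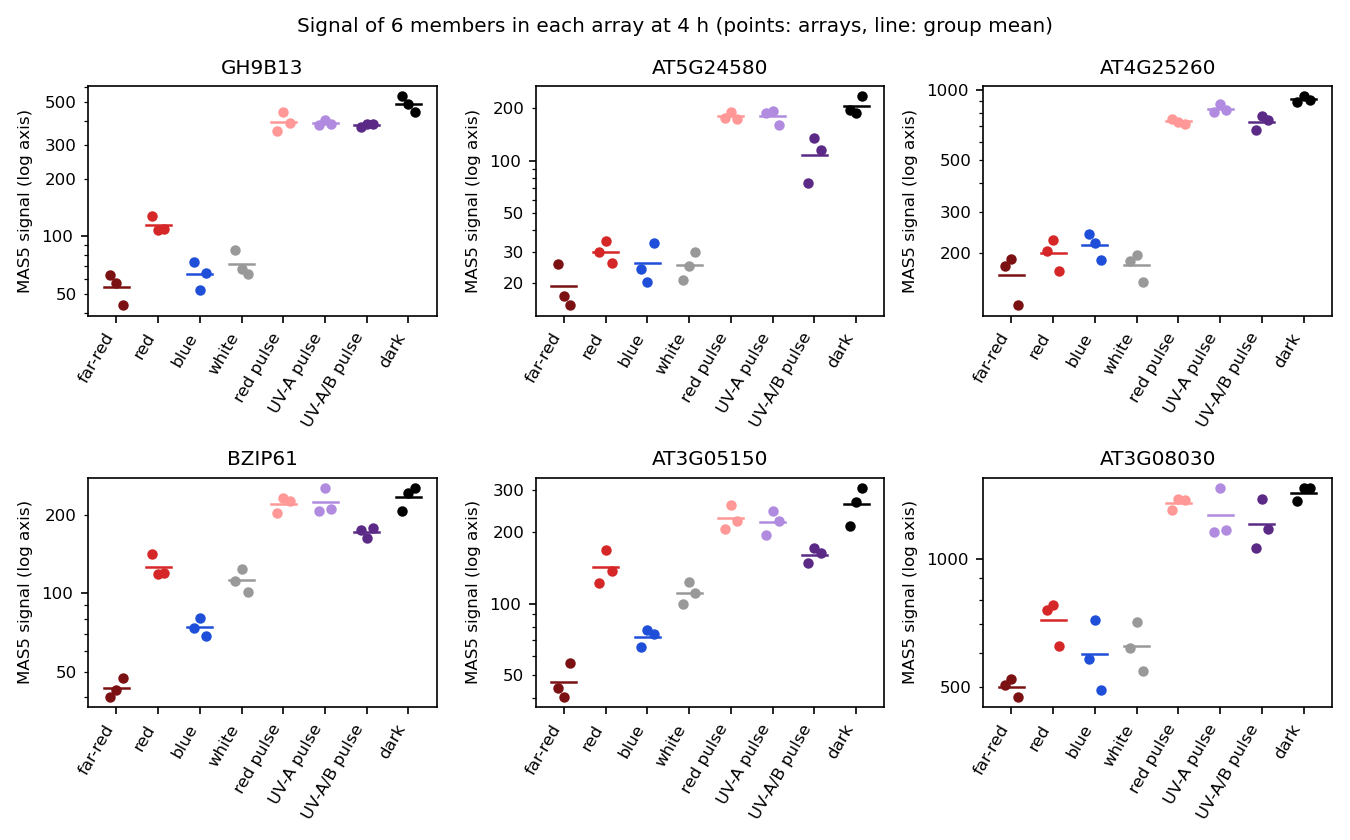
Signal on a log axis of single arrays at 4 h for selected named members, with each light group to the left of the dark group and 3 arrays a group. Continuous-light arrays lie below the red and UV-A pulse arrays and the dark arrays in each panel, and the far-red arrays of BZIP61 (mean 43.5) and AT3G05150 (mean 46.8) lie below their red arrays (126.5 and 142).

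Of the 41 members without a named gene, 248197_at and 264788_at were among the 5 members with the lowest mean D. Probe set 264788_at, whose continuous-light signals were dim, had 1.00, 5.40 and 2.90 in far-red, 30.3, 9.60 and 9.10 in red, 3.30, 8.20 and 1.90 in blue and 23.7, 8.70 and 15.7 in white light, against 105, 57.8 and 103 in darkness at 4 h. Probe set 258399_at had 189.8, 230.2 and 127 in far-red and 475, 564 and 458 in red light, against 1386, 1523 and 1529 in darkness, and held the lowest single D of the set (-2.92 in far-red light). In both probe sets the far-red arrays lay below the red arrays without overlap. Probe set 259784_at had 31.6, 29.1 and 2.20 in far-red light at 4 h, where the signal is dim, 82.3, 120.3 and 55.6 in red light and 193, 212 and 203 in darkness. Over the 48 arrays the correlation between 2 members had a median of 0.791 (0.236 to 0.962 over 2080 pairs), a description of probe sets that were chosen for a shared pattern and share every array. The 24 named members lay on all 5 chromosomes, with 8 on chromosome 1, 1 on chromosome 2, 6 on chromosome 3, 4 on chromosome 4 and 5 on chromosome 5, and no pair lay within 10 genes of each other.

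Values near the bound show how close the selection is. The members nearest to -0.8 in their weakest light were AT3G23880 (-0.81), BZIP61 (-0.81) and AT3G05150 (-0.82), and the nearest probe sets outside it were AT2G47440 (-0.80), AT3G12710 (-0.79) and FHL (-0.78). AT3G12710 had D of -1.90 in far-red and -1.67 in blue light, so it missed the bound through red light alone, as BZIP61 and AT3G05150 nearly did. With each array left out in turn, between 57 and 69 probe sets met the rule, 26 of the 65 members were kept every time and 39 were lost at least once.

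**Figure D3:**
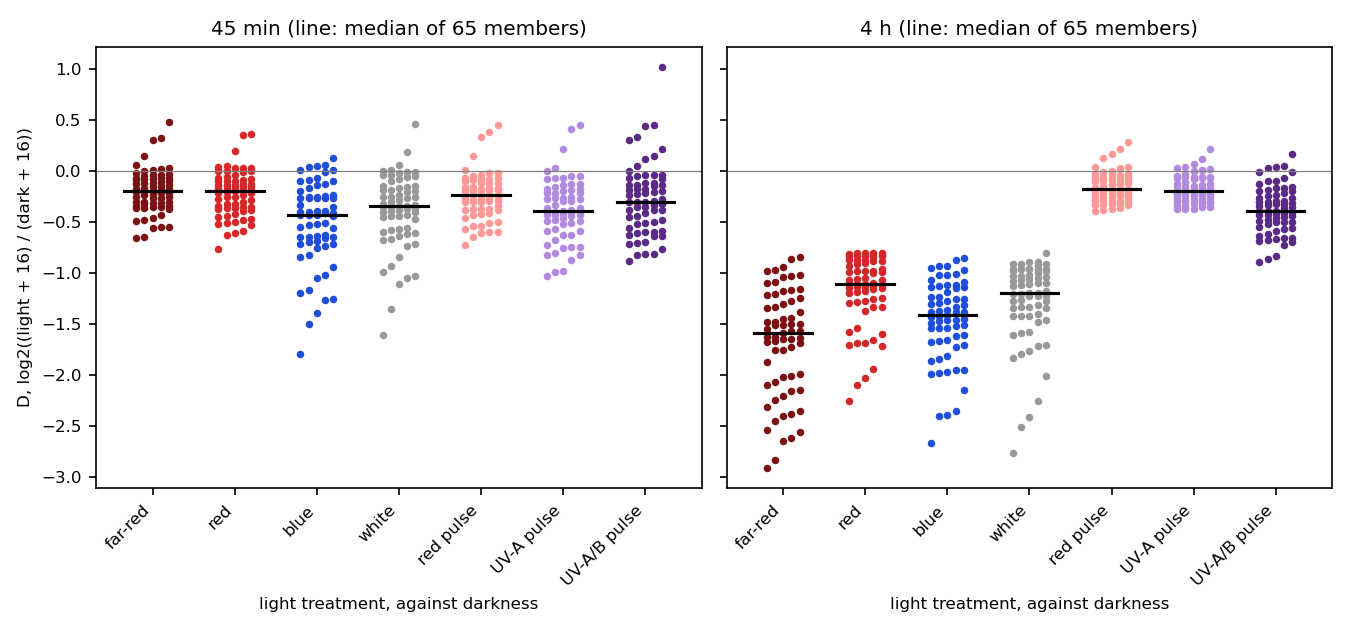
D of each of the 65 members (points) in the 7 lights at 45 min and at 4 h, with the median as a line, on a log2 axis relative to the dark mean with 16 added. At 4 h the continuous lights lie apart from the pulses by selection, and the UV-A/B pulse, which was not used, has a median of -0.39; at 45 min the lowest median is that of blue light (-0.43).

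Differences between lights, and between the UV-A/B pulse and the UV-A pulse or darkness, were tested with limma on log2(signal + 1) for 15777 probe sets, with p-values adjusted over all of them. All 65 members passed the filter on low signals. A fitted difference uses the mean of logs with 1 added, so it is larger than a difference in D for dim probe sets. The continuous lights each entered the selection with the same bound, which limits their levels but sets no order among them. The arrays that chose the members are thus tested again, so comparisons between these lights are not independent of the selection. Shares over all probe sets tested include many that did not reach this bound. The contrasts share groups, so that red arrays enter the comparisons with far-red, blue and white light. For comparison, values are also given for the 127 other probe sets at or below the bound in all 4 continuous lights.

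Most members had higher levels in red than in far-red light. Of the 65 members, 35 were called higher in red than in far-red light at 4 h and none lower (53.8%, against 3.59% called higher and 3.73% lower among all probe sets tested), with a median log2 difference of 0.57 (0.03 over all tested). Of the 127 other lowered probe sets, 41 were called higher and 2 lower (median 0.34). AT3G05150 was higher in red light by 1.58 ± 0.15 (SE, adjusted p = 1.59e-10) and BZIP61 by 1.52 ± 0.12 (adjusted p = 8.46e-12), with all 3 red arrays above all 3 far-red arrays in both. GH9B13 was higher by 1.07 ± 0.13 (adjusted p = 1.28e-07) and P1R3 by 0.96 (adjusted p = 6.56e-05). These 4 calls held without each array of the 2 lights in turn. AT5G22310 was higher in red light by 1.23 ± 0.29 (adjusted p = 0.00396), but without far-red replicate 3, whose signal was 7.70, the difference was 0.56 (adjusted p = 0.168). Smaller differences passed for AT5G62280 (0.83), AT4G14270 (0.74), AT1G76240 (0.67), AT5G24580 (0.66), AT1G02660 (0.62), AT3G08030 (0.52) and AT5G12940 (0.46). The signals of AT5G24580 are dim in both lights, and its call was lost without far-red replicate 2 or 3 or red replicate 2 (adjusted p 0.0832 to 0.142). The call of AT5G62280 was lost without far-red replicate 1 or 3 or red replicate 1 or 2 (0.061 to 0.419), and that of AT5G12940 without any far-red array or red replicate 2 (0.0862 to 0.265). The difference was close to 0 and not called for the pectin methylesterase gene AT3G10720 (-0.03 ± 0.17), the receptor kinase gene AT1G34110 (0.05 ± 0.16) and AT1G21830 (0.01 ± 0.17). Among probe sets without a name the largest difference was that of 259784_at (2.50), whose far-red signals were dim.

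The median log2 difference of the members in blue light was -0.33 against red light and 0.22 against far-red light. Of the 65 members, 14 were called lower in blue than in red light at 4 h and none higher (21.5%, against 2% lower and 2.15% higher among all tested), and 29 of the 127 other lowered probe sets were (22.8%), so the share among members was close to that of the other lowered probe sets. AT3G05150 had a log2 difference in blue against red light of -0.96 ± 0.15 (SE, adjusted p = 1.67e-05). GH9B13 had -0.86 (adjusted p = 2.53e-05), BZIP61 -0.76 (adjusted p = 6.13e-05) and AT1G02660 -0.63 (adjusted p = 0.00179), and none of these 4 calls was lost without a single array. P1R3 had -0.70 (adjusted p = 0.00744), which was lost without red replicate 2 (adjusted p = 0.0791). AT5G12940 had -0.51 (adjusted p = 0.032), lost without red replicate 2 or blue replicate 2 or 3 (0.123 to 0.23). Against far-red light, 7 members were called higher in blue light and none lower (10.8%, against 0.127% higher and 0.101% lower among all tested, and 3 of the 127 other lowered probe sets), including BZIP61 (0.76, adjusted p = 0.00101) and AT3G05150 (0.63, adjusted p = 0.045). Without blue replicate 2 the count was 4, and the call of AT3G05150 was lost without far-red replicate 1 or 2 or any blue array (adjusted p 0.0582 to 0.334). That of BZIP61 was lost only in a fit of the 2 groups alone (0.0555). For these 2 genes the 3 levels, far-red, blue and red from low to high, were each called apart from the next, while for GH9B13 blue and far-red light were not called apart (0.22 ± 0.13, adjusted p = 0.999).

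The median member had a log2 difference of -0.17 in white against red light and of 0.19 in white against blue light. Against red light 2 members were called lower in white light and none higher (3.08%, against 0.165% lower and 0.437% higher among all tested, and 7 of the 127 other lowered probe sets): GH9B13 (-0.67, adjusted p = 0.00558) and 261226_at (-0.87). Without red replicate 1 or white replicate 3 no member was called and without replicate 2 of either light 1 was. GH9B13 had adjusted p of 0.0717 without red replicate 1 and 0.0587 without white replicate 3. Against blue light 9 members were called higher in white light and none lower (13.8%, against 0.298% higher and 0.158% lower among all tested, and 1 of the 127 other lowered probe sets), including AT3G05150 (0.61, adjusted p = 0.0397), BZIP61 (0.58, adjusted p = 0.0226) and AT1G02660 (0.54, adjusted p = 0.0474). That count was 1 without blue replicate 1 or white replicate 1, 2 without blue replicate 3, 3 without white replicate 2 and 5 without white replicate 3. The calls of AT3G05150 and AT1G02660 were lost without any 1 of the 6 arrays (adjusted p 0.062 to 0.282 and 0.0553 to 0.272), and that of BZIP61 without replicate 1 of either light, white replicate 2 or blue replicate 3 (0.0904 to 0.177).

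**Figure D4:**
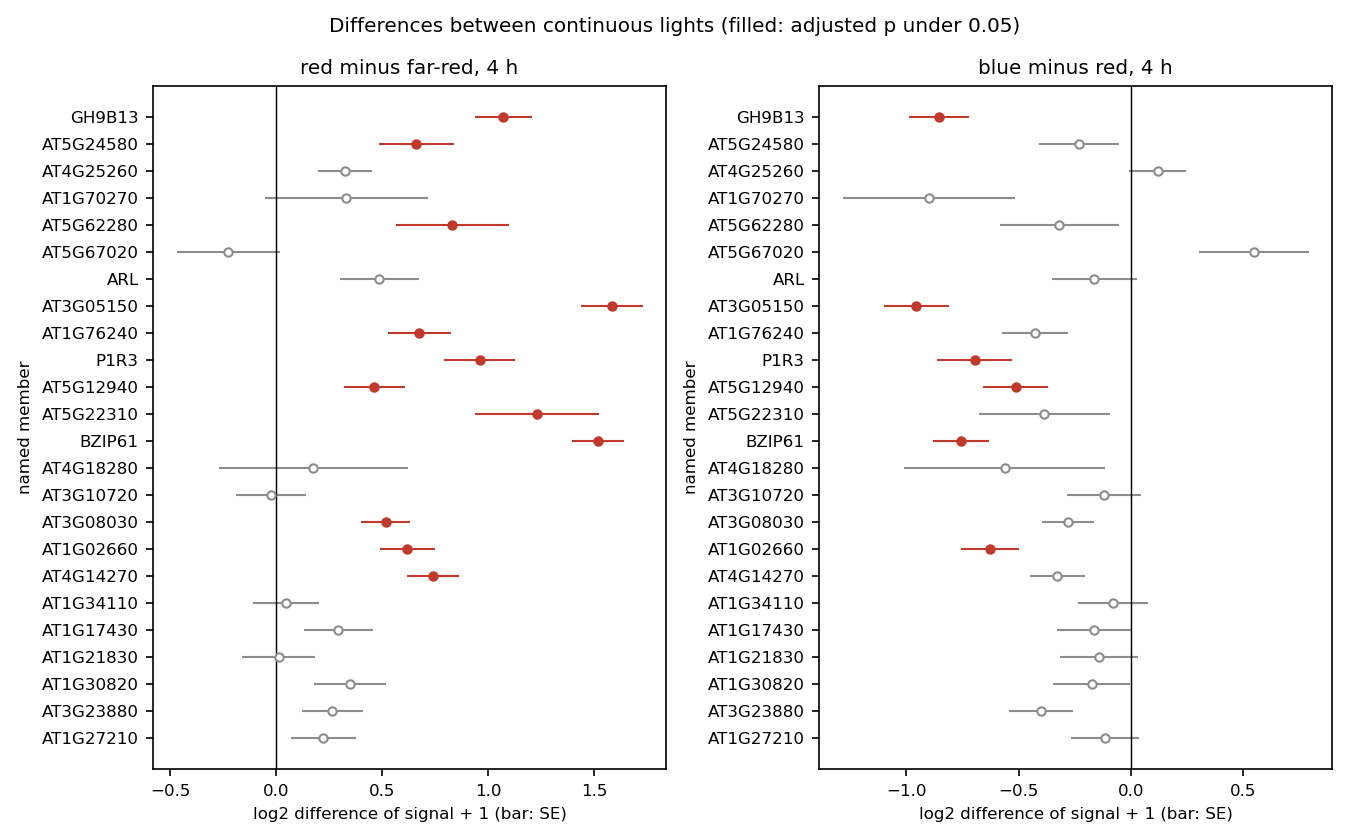
Log2 differences of signal + 1 (points, with the SE as bars) of the 24 named members at 4 h, red minus far-red light on the left and blue minus red light on the right, filled where the adjusted p is under 0.05. AT3G05150 (1.58 and -0.96), BZIP61 (1.52 and -0.76) and GH9B13 (1.07 and -0.86) are filled in both panels, while AT3G10720 and AT1G34110 lie near 0 in both panels.

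The members' levels 4 h after the 3 pulses were compared next. After the red and the UV-A pulse no member was called different between them (0.038% of all tested were, in either direction), with a lowest adjusted p of 0.891 and 1 member at an unadjusted p under 0.05. Both groups entered the selection with the same bound, which keeps them close. After the UV-A/B pulse 22 members were called lower than darkness and none higher (33.8%, against 11.4% lower and 10.9% higher among all tested), with a median log2 difference of -0.42 (-0.01 over all tested). The dark arrays of this comparison also chose the members, so it is not independent of the selection. Against the UV-A pulse, 8 members were called lower and none higher (12.3%, against 3.98% lower and 4.76% higher among all tested), with a median of -0.19. This comparison is not independent of the selection either, since the rule keeps probe sets with a high UV-A mean, which favours lower values after UV-A/B. Of the 127 other lowered probe sets, 27 (21.3%, median -0.28) were called lower after UV-A/B than after UV-A and none higher. Without UV-A/B replicate 1 or 3 the count of members called lower than after UV-A was 5. Of the 127 other lowered probe sets, 98 (77.2%) were called lower than darkness after UV-A/B, with a median of -0.93, and the difference from the members was not tested. Most of the 127 are no members because D was low after the red or the UV-A pulse, so the selection favours this difference. For 50 members all continuous-light arrays lay below the 3 UV-A/B arrays (6.14% of all tested), and for 37 the 3 UV-A/B arrays lay below the 3 dark arrays (18.8%). The selection favours the first separation, since it requires low means in the continuous lights. The dark arrays of the second also chose the members.

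AT1G17430, the alpha/beta hydrolase gene, had the largest lowering of a named member against darkness after UV-A/B, with a log2 difference of -1.02 ± 0.16 against darkness (SE, adjusted p = 6.8e-06) and -0.77 ± 0.16 against UV-A (adjusted p = 0.00108, and 0.0599 in a fit of the 2 groups alone). AT5G24580 followed with -0.95 ± 0.18 against darkness (adjusted p = 8.34e-05) and -0.77 ± 0.18 against UV-A (adjusted p = 0.00298) (the call against UV-A was lost without UV-A/B replicate 1, adjusted p = 0.077). AT4G14270 (-0.71 ± 0.12, adjusted p = 2.64e-05), the sugar transporter gene AT3G05150 (-0.69 ± 0.15, adjusted p = 0.000388) and the receptor kinase gene AT1G34110 (-0.67, adjusted p = 0.00121) were also lower than darkness. The first 2 of these were lower than after UV-A as well, with differences of -0.39 (adjusted p = 0.0387) and -0.45 (adjusted p = 0.0428). Against UV-A the call of AT4G14270 was lost without UV-A replicate 1 or 2 or UV-A/B replicate 1 or 3 (adjusted p 0.0917 to 0.175), and that of AT3G05150 without UV-A replicate 2 or 3 or any UV-A/B array (0.0607 to 0.178). AT3G23880, AT1G27210, AT1G02660, BZIP61 and GH9B13 were lower than darkness, with differences of -0.54, -0.52, -0.44, -0.44 and -0.36, and each of these 5 calls was lost without at least 1 single array. The call of AT3G23880 was lost without dark replicate 3 (adjusted p = 0.0567), as was that of BZIP61 (0.0528), that of AT1G27210 without UV-A/B replicate 3 (0.0839) and that of AT1G02660 without UV-A/B replicate 2 (0.161). The call of GH9B13 was lost without any of the 3 UV-A/B arrays and without dark replicate 1 or 2 (0.0806 to 0.187). AT1G27210 was also lower after UV-A/B than after UV-A (-0.47, adjusted p = 0.0441), which was lost without UV-A replicate 1 or 2 or UV-A/B replicate 1 or 3 (0.071 to 0.245). Wall genes AT3G10720 (-0.01), AT3G08030 (-0.26) and AT4G25260 (-0.32) and the expansion gene ARL (-0.29) did not pass the test. The 3 UV-A/B arrays differed in their summed cotyledon and shoot markers (2660 to 5960), more than the UV-A arrays did (3240 to 4930), and the part of this spread in these values was not tested.

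**Figure D5:**
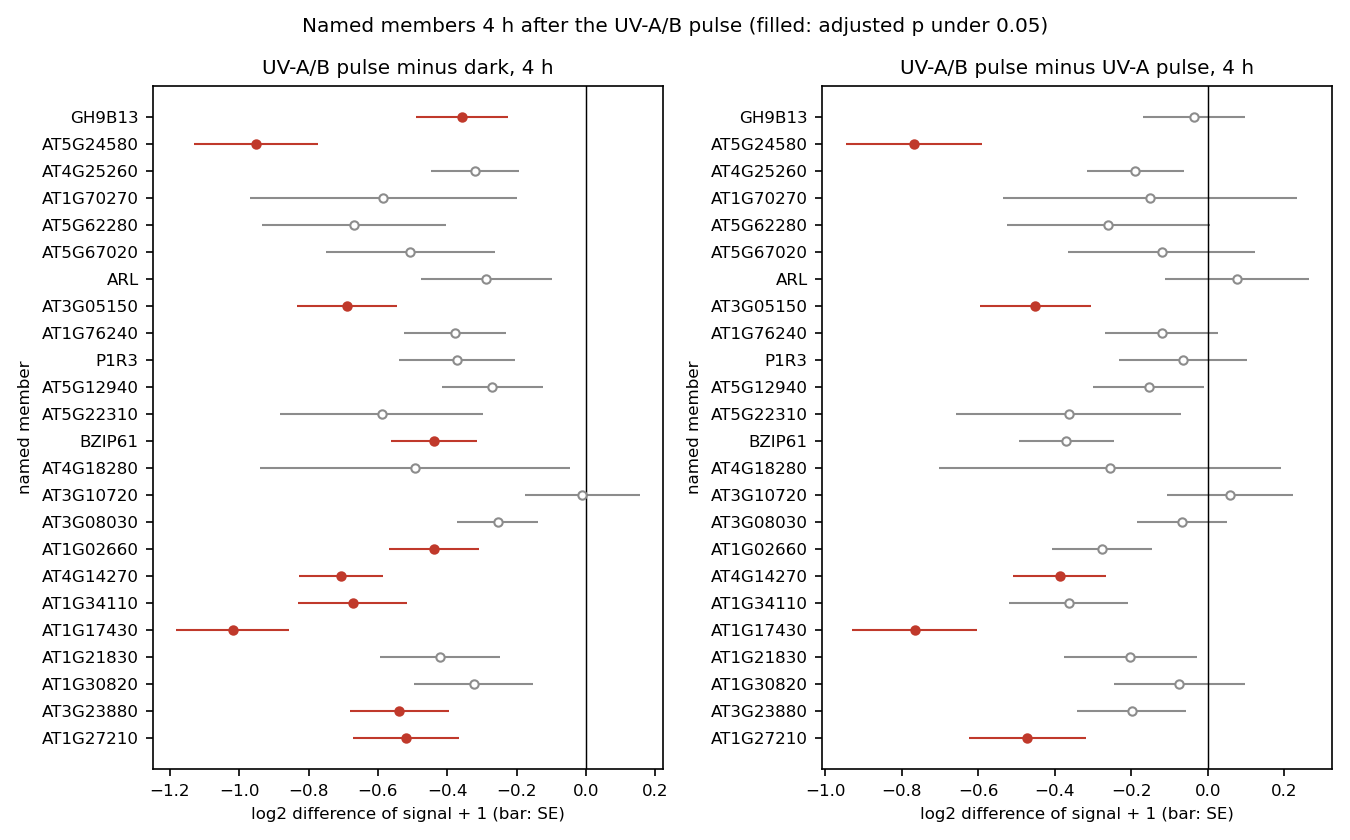
Log2 differences of signal + 1 (points, with the SE as bars) of the 24 named members 4 h after the UV-A/B pulse, against darkness and against the UV-A pulse, filled where the adjusted p is under 0.05. AT1G17430 (-1.02 and -0.77) and AT5G24580 (-0.95 and -0.77) lie lowest in both panels, while AT3G10720 lies at -0.01 against darkness.

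At 45 min the median D of the members was -0.20 in far-red and red light, and it was lower in blue (-0.43) and white light (-0.34) and after the UV-A pulse (-0.39). D was below -0.7 in 16 members in blue and 10 in white light, in 11 after UV-A and 8 after UV-A/B, in 1 each in red light and after the red pulse and in none in far-red light. In the comparison of blue with red light at 45 min, 12 members were called lower in blue light and none higher (18.5%, against 0.444% lower and 0.0697% higher among all tested), as were 9 of the 127 other lowered probe sets (7.09%). Without red replicate 1 or 2 the count was 7 each, and without blue replicate 3 it was 6. The 45 min arrays of both lights entered the selection, which needs D above -0.7 in at least 3 of the 7 lights. This comparison is thus not independent of the selection. AT3G23880, the F-box gene, had 85.5, 82.9 and 91.4 in blue and 130.3, 156 and 135 in red light at 45 min, against 148, 177 and 142 in darkness. Its log2 difference of blue to red light was -0.69 ± 0.14 (SE, adjusted p = 0.00788), which was lost without red replicate 2 (0.102) or blue replicate 2 (0.0573). BZIP61 had 149, 144 and 120.2 in blue and 194, 240.0 and 184 in red light, with a difference of -0.57 (adjusted p = 0.0145), lost without red replicate 2 (0.206) or blue replicate 3 (0.169). AT1G02660 had a difference of -0.55 (adjusted p = 0.0372), lost without red replicate 1 or 3 or blue replicate 1 or 2 (0.0702 to 0.368). GH9B13 and AT3G05150, which were lower in blue than in red light at 4 h, had 0.20 and -0.07 at 45 min and were not called. Among the called members, 259787_at and 259773_at had the largest difference (-1.14 each), while 264788_at (-1.48, adjusted p = 0.0688) and 259784_at (-1.44, adjusted p = 0.243) were not called; none of the 4 has a name here.

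After the UV-A/B pulse, 4 members were called higher than after UV-A at 45 min and none lower (6.15%, against 1.38% higher and 0.78% lower among all tested), all without a name. Of the 127 other lowered probe sets, 3 were called higher and 5 lower. The condition at 45 min used the arrays of both pulses, so this comparison is not independent of the selection either. Probe set 245251_at had 234, 208 and 240.3 after UV-A/B and 84.2, 75.2 and 90.5 after UV-A, against 95.2, 109.8 and 107 in darkness at 45 min (log2 difference to UV-A 1.44 ± 0.18, SE, adjusted p = 8.65e-07). All 3 UV-A/B arrays stood above the others, including replicate 2, whose description gives darkness. At 4 h the same probe set had 70.9, 52.2 and 77.4 after UV-A/B, against 119.5, 112 and 102 in darkness, a log2 difference of -0.75 (adjusted p = 0.00167). Probe set 248164_at had a difference of 1.00 against UV-A at 45 min (adjusted p = 0.000238) and -0.60 at 4 h (adjusted p = 0.021). Probe sets 260152_at and 258399_at were called higher at 45 min (0.82 and 0.50) and not called at 4 h. The change of this difference from 45 min to 4 h, a test added after the data were seen, was called in 5 members, all in the lower direction (1.25% of all tested were lower and 2.19% higher). The same test of blue against red light was called in 4 members in the lower direction and 1 in the higher (0.254% and 0.691% of all tested).

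Genes of related pathways that are not members were read from lists of named genes, each in far-red light against darkness at 4 h, where 13.6% of all probe sets tested were called higher and 15.4% lower. These lists were drawn up with earlier results of these data known. Of 23 cell wall probe sets besides GH9B13, 6 were called higher and 4 lower in far-red light. The endoglucanase GH9B8 averaged 433 in far-red light, against 136 in darkness (1.66, adjusted p = 3.21e-12). CSLC04, of the family that makes the glucan backbone of xyloglucan, averaged 348 in far-red light, against 912 in darkness (-1.42, adjusted p = 3.8e-11), 909 after the red pulse and 898 after the UV-A pulse. Of 7 auxin probe sets 3 were called lower in far-red light and none after the red pulse (0.919% of all tested were lower) or the UV-A pulse (2.16%). The 3 were GH3.3, IAA20 and IAA29, all among the genes excluded from the members by name. GH3.3, which conjugates auxin, averaged 35.4 in far-red light and 302 after the red pulse, against 371 in darkness. Of 8 cytoskeleton probe sets 4 were called lower in far-red light (the tubulin genes TUB1 with -0.87, TUB6 with -0.83, TUB5 with -0.71 and TUA6 with -0.51), 1 after the UV-A pulse and none after the red pulse. Of 13 transcription factor probe sets besides BZIP61, 4 were called lower and none higher, among them TCP15 (-1.04). Of 3 regulators of shade and early light responses HYH was called higher (mean 159 in far-red light, against 5.63 in darkness) and HAT2 and SPT lower. HAT2, which was excluded from the members by name, is also counted among the transcription factors called lower. EIN3, the transcription factor of ethylene signalling, was the 1 ethylene gene found by name and averaged 563 in far-red light, against 812 in darkness (-0.53). Of 3 gibberellin receptor probe sets GID1B was called higher (0.77), and of 6 cell cycle and histone probe sets 1 was higher and none lower. The 1 probe set each for membrane transport and for cuticle was not called, and no gene of the brassinosteroid list was found by name.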

How the data were processed

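Gene expression was measured on Affymetrix ATH1 arrays, which hold 22810 probe sets, in 48 samples. The deposited intensity values are linear MAS5 signals, per the submitters' processing notes, scaled so that the mean without the outer 2% of each array is 100, as tested on the values. The array medians ran from 37.1 to 43.8, and 567 values are 0. An alignment or genome build does not apply, and no coordinates are given. Probe sets were named through the platform annotation and RefSeq: of those that are not controls 13513 stand for 1 gene, 503 for several, and 8730 are not listed there. Samples were grouped by light and harvest from their labels. The members and the gene lists were chosen with earlier results of these data known.

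From the deposited signals, limma 3.58.1 (R 4.3.3) fitted log2(signal + 1) with 16 group means to 15777 probe sets above their array's 40th percentile (24.3 to 30.1) in at least 3 arrays, with an intensity trend and Benjamini-Hochberg adjustment over all of them. There were 32 residual degrees of freedom, and a call is an adjusted p under 0.05. A sample of each group thus informs the spread of all. The fit was tested on simulated data. The means, the ratio D and the percent of the dark mean come from linear signals. Named were members with 1 gene that are on a gene list, the 12 with the lowest mean D, the 4 brightest in darkness, the 4 largest called changes per contrast and direction, and the 3 on either side of the bound; further members are named to complete the account. Symbols that matched a family pattern by letters alone (PRP39, PRP39-2 and PMEAMT) were left out of the lists.

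The replicate numbers in the labels were checked for pairing. In 7 of the 10 tested contrasts same-numbered arrays deviated together with a correlation over 0.1 in every pair, and in red against far-red, white against red and white against blue light the lowest was 0.0601, 0.0743 and 0.0975. The main fit did not use the replicate numbers, so its calls, and the members it did not call, rest on an unpaired comparison. Alternatives were another pseudocount, quantile normalization, no filter, a fit on the groups compared alone, a replicate block, each array left out, and both arrays whose labels disagree on the light (UV-A/B 45 min replicate 2 and dark 4 h replicate 1) left out, while far-red 45 min replicate 2, whose title gives 2 replicate numbers, was kept.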

Additional observations from a re-analysis of the deposited data

Results flagged for a closer look

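The difference between blue and red light was not the same at 4 h as at 45 min in 5 members, by the test of that change in the limma fit (adjusted p under 0.05). Among all probe sets tested, 0.254% were called in the lower and 0.691% in the higher direction. This test was added after the data were seen, and the arrays of both lights entered the selection. The change of the log2 difference of blue to red light, 4 h minus 45 min, was -1.053 for the endoglucanase gene GH9B13 and -0.888 for the sugar transporter gene AT3G05150. It was -0.754 for 262575_at and -0.61 for 247965_at. In the other direction it was 1.378 for 253207_at, which was called lower in blue than in red light at 45 min and not at 4 h.

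The difference between the UV-A/B and the UV-A pulse also changed between the harvests in 5 members, each in the lower direction at 4 h. Among all probe sets tested, 1.25% were called in the lower and 2.19% in the higher direction. That test too was added after the data were seen, and it uses arrays that entered the selection. The change was -1.833 for 245251_at, -1.597 for 248164_at and -1.115 for 260152_at. It was -0.697 for 258399_at and -0.549 for 247965_at. The UV-A/B group at 45 min holds replicate 2, whose description gives darkness, and its value for 245251_at lay with the other UV-A/B arrays.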

How the results depend on the processing

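No result changed direction under any alternative run. Counts of members in these runs, here and above, are given without the share of all probe sets called in the same fit. They show how the calls vary and cannot be set against the shares of the main fit. Fitted on the compared groups alone, the members called were 1 for UV-A/B against UV-A at 4 h, 2 for blue against far-red light, 0 for white against red, 1 for white against blue, 2 for UV-A/B against UV-A at 45 min and 0 for blue against red at 45 min; this fit has fewer arrays to estimate the spread. With a pseudocount of 16, 5 were called for white against blue light. Leaving out each array in turn gave 18 to 22 members for UV-A/B against darkness, 5 to 9 for UV-A/B against UV-A at 4 h, 28 to 35 for red against far-red, 12 to 15 for blue against red at 4 h, 4 to 7 for blue against far-red, 0 to 2 for white against red, 1 to 8 for white against blue, 3 to 4 for UV-A/B against UV-A and 6 to 9 for blue against red at 45 min, and 0 each time for the red against the UV-A pulse. The replicate block gave 32 members for UV-A/B against darkness, 10 against UV-A, 36 for red against far-red and 21 for blue against red light at 4 h, and it moved no count by over 1.5 times and lost no call of a named gene. Of 42 calls of named genes 17 were lost under no alternative. The rule gave 84 probe sets with a pseudocount of 1 (61 of the 65 members), 65 after quantile normalization (59), 60 with medians (48) and 68 without the 2 arrays whose labels disagree on the light (57). Where these differ the cause was not tested. Signals near the 40th percentile of an array limit the size of the lowering in the dimmest members.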
